A study of Mus musculus with 8 samples.

Results

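The set described here holds 10 genes that carry, answer or dampen the FGF and ERK signal in mouse embryonic stem cells. They were chosen by name from a fixed list and not by a rule on their values, though with earlier results of these data known. All 10 were found among the 17812 gene identifiers of the series. The cells were E14TG2a, an embryonic stem cell line of strain 129/Ola that was grown on gelatin without feeder cells. The medium held leukaemia inhibitory factor, the GSK3 inhibitor CHIR99021 and the MEK inhibitor PD0325901 in all groups, wild-type cells included. The 4 groups were wild-type cells (WT) and the edited lines E1-KO, E2-KO and E3-KO, from which CRISPR/Cas9 had removed 1 enhancer each. Every group had 2 biological replicates. The study asked how promoter and enhancer associations bear on the roles of Sox2. The positions of the deleted enhancers and whether a line was 1 clone or a pool are not given in the sources used here. An edited control line with its enhancers in place was not analysed here, so the enhancer loss cannot be told apart from other effects of editing.

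FGF ligands bind receptor tyrosine kinases, which signal through adaptors, RAS, RAF and MEK to the kinase ERK. In embryonic stem cells FGF4 is the main autocrine ligand, FGFR1 is a main receptor, and ERK activity moves cells out of the naive state. ERK switches on ETS factors (Etv4, Etv5), the zinc finger factor Egr1 and its own brakes: Sprouty and SPRED proteins act upstream of or at RAF, and DUSP phosphatases remove phosphate from MAP kinases. A MEK inhibitor such as the one in this medium blocks the step just before ERK.

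The values were taken as FPKM, that is, fragments scaled to transcript length and to sequencing depth, so levels can be compared between genes. The depth in reads is unknown. The step sizes of low values put the depth of the libraries at 0.785 to 1.01 of that of WT replicate 1. Between 11078 and 11265 genes had at least 1 FPKM in a library. Differences are on the scale of log2(FPKM + 1), where the change of a low gene appears too small, and were tested with limma-trend over the 11272 genes whose mean reached 1 FPKM. Over these genes the median difference from WT was -0.06, -0.08 and -0.15 (E1-KO, E2-KO, E3-KO), and median-ratio scaling moved the last of these to -0.00074. Changes in E3-KO are to be read against a shift of that size. The 10 stem cell markers summed to 1454 to 1871 FPKM in a library, with Pou5f1 at 360.0 to 553 FPKM and Nanog at 373 to 618 FPKM. Markers of the list went both ways. Pou5f1 had 360.0 and 382 FPKM in WT and 428 to 553 FPKM in the lines. Zfp42 was also higher in every knockout library (192.4 to 323 FPKM) than in WT (189.4 and 192.2 FPKM). Others, Klf4, Tfcp2l1 and Dppa3 among them, were lower in every knockout library than in WT. Klf4 had 159 and 181 FPKM in WT and 68.9 to 87.9 FPKM in the lines. Tfcp2l1 had 159 and 165 against 73.4 to 108, and Dppa3 15.0 and 18.0 against 1.66 to 9.27. The 5 listed primitive endoderm markers summed to 0.737 to 1.65 FPKM in WT, E1-KO and E2-KO and to 2.44 and 4.69 FPKM in E3-KO, most of it Gata6, and the 6 fibroblast markers summed to 3.25 to 5.60 FPKM. Whether these marker levels bear on the genes below was not tested.

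Etv4, Spry4 and Dusp6 formed the main pattern. Etv4 and Spry4 rose both in E1-KO and in E2-KO but were near their WT level in E3-KO. Dusp6 rose in E1-KO and fell in E3-KO. Spred1 fell in all 3 lines, most in E3-KO. Their relatives Etv5 and Spry2 did not pass the test in any line. Of the 8 genes that passed the filter on low values, 3 rose and 2 fell in E1-KO, where 15.0% of all tested genes rose and 23.0% fell. In E2-KO 3 rose and 1 fell against 14.2% and 21.9% of all tested genes. In E3-KO 1 rose and 2 fell against 13.9% and 30.8%, which for both directions is close to the background. For the 8 genes the median difference was 0.29, 0.25 and -0.14 for the lines in the same order. Dusp4 and Egr1 had a mean under 1 FPKM and were not among the tested genes. The 3 comparisons share the WT samples.

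**Figure D1:**
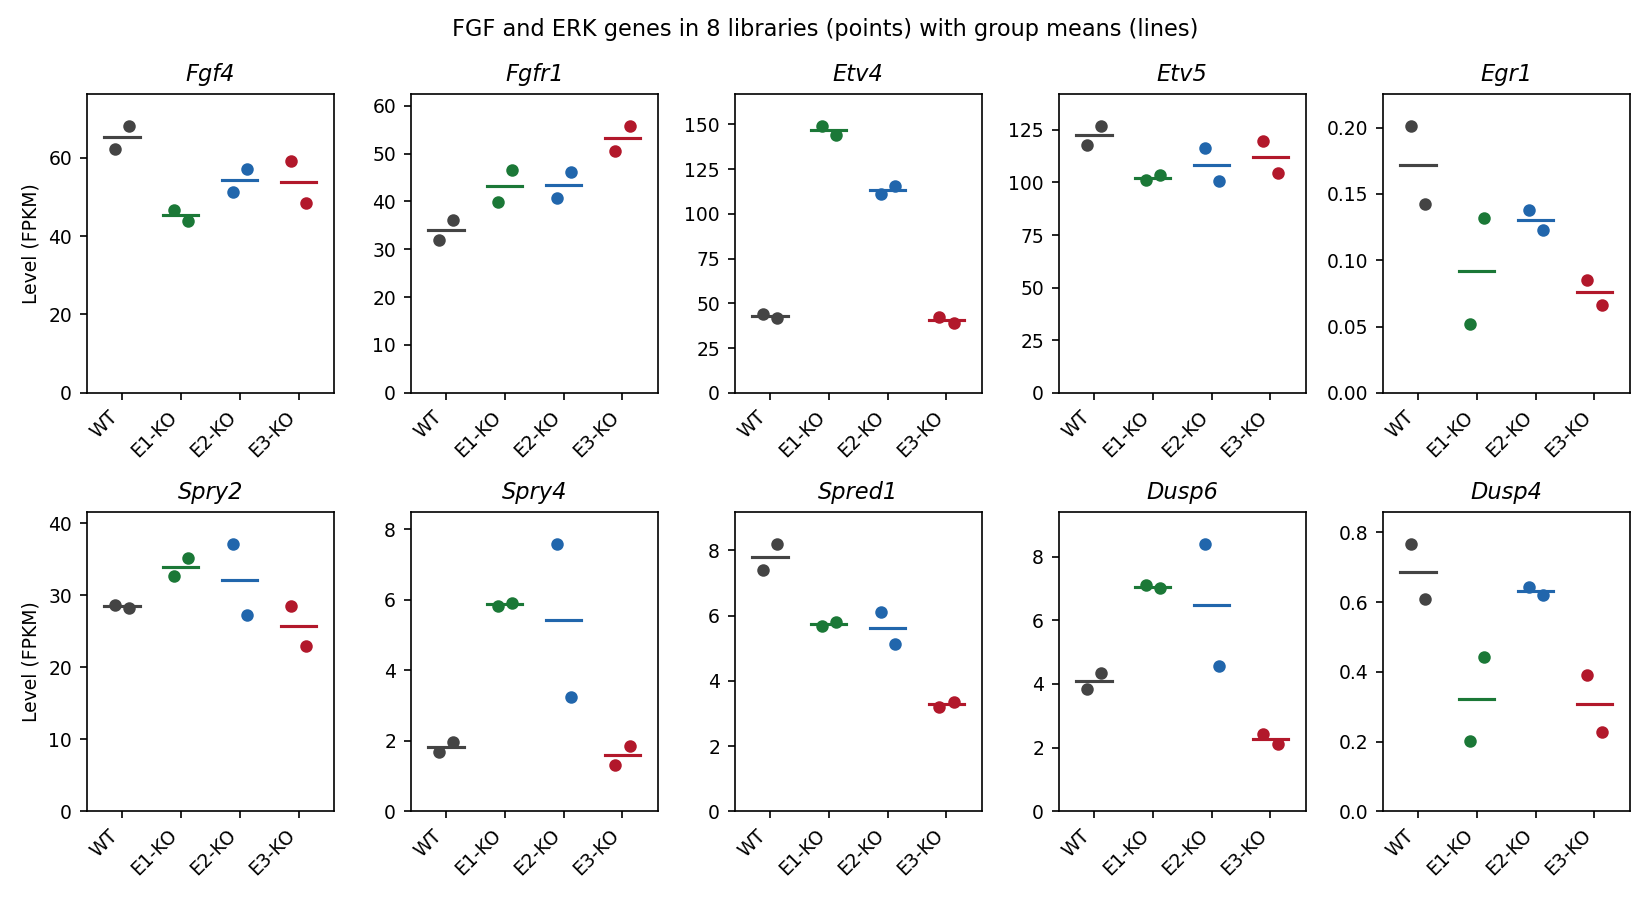
Level in FPKM (vertical axis, from 0, its own scale in each panel) of the 10 genes in WT, E1-KO, E2-KO and E3-KO; points are the 2 libraries of a group and lines are group means. Etv4 lies at 111 to 149 FPKM in E1-KO and E2-KO and at 38.8 to 43.9 FPKM in WT and E3-KO, and the 2 libraries of E2-KO lie far apart for Spry4 and Dusp6.

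The ligand came first in the order of roles. Fgf4 (ENSMUSG00000050917, chromosome 7) stood at 62.3 and 68.2 FPKM in WT, at 46.8 and 44.0 FPKM in E1-KO, at 51.4 and 57.2 FPKM in E2-KO and at 59.1 and 48.6 FPKM in E3-KO. Every knockout library lay below both WT libraries. It fell by 0.51 in E1-KO (standard error 0.119, limma-trend adjusted p = 0.00963), to 0.696 of the WT mean. This call did not pass without E1-KO replicate 2 (-0.47, limma-trend adjusted p = 0.067) or without WT replicate 2 (-0.45, limma-trend adjusted p = 0.0823). The differences of -0.26 in E2-KO (95% interval -0.53 to 0.01) and -0.28 in E3-KO (-0.55 to -0.01) did not pass (limma-trend adjusted p = 0.115 and 0.0847). The latter depended on the library kept: it passed without E3-KO replicate 1 (-0.42, limma-trend adjusted p = 0.0257) and was -0.14 without E3-KO replicate 2 (limma-trend adjusted p = 0.384).

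The receptor moved the other way. Fgfr1 (ENSMUSG00000031565, chromosome 8) stood at 31.9 and 36.0 FPKM in WT, 40.0 and 46.5 FPKM in E1-KO, 40.7 and 46.2 FPKM in E2-KO and 50.5 and 55.9 FPKM in E3-KO. All knockout libraries lay above both WT libraries, and those of E3-KO were the highest. Fgfr1 rose by 0.63 in E3-KO (standard error 0.120, limma-trend adjusted p = 0.00306), 1.57 times the WT mean, and this call held under each alternative tried. In E2-KO the rise of 0.35 passed narrowly (limma-trend adjusted p = 0.0498), and leaving out any library of E1-KO, E2-KO or WT took it to 0.0518 to 0.261. It was also lost with all genes above 0 (0.0768), without the trend (0.0726), with the pseudocount of 0.1 or with summed rows (0.0509 each) and in the 4 samples alone (0.0588). E1-KO had a difference of nearly the same size (0.34) that missed the threshold (limma-trend adjusted p = 0.0515), and leaving out any library of E2-KO or E3-KO took it to 0.0426 to 0.0491, whereas leaving out one of E1-KO or WT took it to 0.0724 to 0.290. The rise in E2-KO against the miss in E1-KO is thus no difference between these lines, which differed by 0.01 (95% interval -0.26 to 0.28).

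Etv4 (ENSMUSG00000017724, chromosome 11) is an ETS transcription factor switched on by FGF signals. On the scale of log2(FPKM + 1) it had the largest difference of the 8 genes in E1-KO and E2-KO. Its level was 43.9 and 41.8 FPKM in WT, 149 and 144 FPKM in E1-KO, 111 and 116 FPKM in E2-KO and 42.2 and 38.8 FPKM in E3-KO. The libraries of E1-KO and E2-KO stood far above the other 4, and those of E3-KO overlapped WT. The rise was 1.75 in E1-KO (standard error 0.0918, limma-trend adjusted p = 2.32e-05) and 1.38 in E2-KO (limma-trend adjusted p = 5.93e-05), or 3.42 and 2.65 times the WT mean. In E3-KO the difference was -0.08 (95% interval -0.29 to 0.13, limma-trend adjusted p = 0.4998), with a sign that turned positive under median-ratio scaling (0.08) and quantile normalization (0.01). Both rises held under each alternative tried. As a ratio of means, Spry4 rose more than Etv4 in E2-KO (2.97 against 2.65) and less in E1-KO (3.22 against 3.42).

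Etv5 (ENSMUSG00000013089, chromosome 16), the close relative of Etv4 and a partner in the same ETS subfamily, did not share this pattern. It stood at 118 and 127 FPKM in WT, 101 and 103 FPKM in E1-KO, 116 and 101 FPKM in E2-KO and 119 and 105 FPKM in E3-KO. Only E3-KO replicate 1, of the knockout libraries, lay between the WT libraries, and the others lay below both. The differences from WT were -0.26, -0.18 and -0.13 (limma-trend adjusted p = 0.0952, 0.242 and 0.374). The differences in E1-KO and E2-KO passed after quantile normalization (-0.34 and -0.30, limma-trend adjusted p = 0.0197 and 0.0354), and that in E1-KO also when its samples and WT were fitted alone (limma-trend adjusted p = 0.0168). In WT, Etv5 was thus the more abundant of the pair and the most abundant of the 10 genes. In E1-KO Etv4 took the first place, and in E2-KO the libraries of Etv4 (111 and 116 FPKM) and Etv5 (116 and 101 FPKM) overlapped.

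Egr1 (ENSMUSG00000038418, chromosome 18), the classic immediate early target of ERK, was at the floor of the data in every group. It had 0.202 and 0.142 FPKM in WT against 0.0518 and 0.132 in E1-KO, then 0.138 and 0.123 in E2-KO and lastly 0.0855 and 0.0664 in E3-KO. All knockout libraries were below both WT libraries, at a level where such steps are small. In a fit on all genes above 0, its difference from WT was -0.10, -0.05 and -0.12 in E1-KO, E2-KO and E3-KO (limma-trend adjusted p = 0.213, 0.545 and 0.127). Of the other immediate early genes, Egr2 reached at most 0.149, Egr3 0.0691, Fosb 0.095 and Fosl1 0.0995 FPKM in a library. Egr4 had 0.222 to 0.774 FPKM in E1-KO and E2-KO, above Egr1, but 0.0668 and 0.0346 FPKM in WT, below it. In E3-KO Egr4 had 0.0854 and 0 FPKM, no higher than Egr1. Fosl2 reached 0.766 FPKM and was above Egr1 except in E2-KO replicate 1 (0.0923 against 0.138 FPKM). Others were higher than Egr1: Fos had group means of 0.761 to 1.39 FPKM, Junb of 15.0 to 18.4 FPKM and Ier2 of 59.5 to 76.4 FPKM.

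Among the Sprouty genes, Spry4 (ENSMUSG00000024427, chromosome 18) changed and Spry2 did not pass the test. Spry4 had 1.68 and 1.97 FPKM in WT, 5.83 and 5.91 FPKM in E1-KO, 7.58 and 3.25 FPKM in E2-KO and 1.32 and 1.86 FPKM in E3-KO. All 4 libraries of E1-KO and E2-KO lay above those of WT and E3-KO, which overlapped. Spry4 rose by 1.28 in E1-KO (standard error 0.281, limma-trend adjusted p = 0.00773), which held under each alternative that tested it. In E2-KO it rose by 1.10 (limma-trend adjusted p = 0.0158), and E2-KO replicate 1 carried most of it: without that library the difference was 0.59 (limma-trend adjusted p = 0.0561), and without E2-KO replicate 2 it was 1.61 (limma-trend adjusted p = 0.00121). Leaving out WT replicate 1 or 2 also ended this call (limma-trend adjusted p = 0.0846 and 0.0618), as did testing all genes above 0 (limma-trend adjusted p = 0.0515). In E3-KO the difference was -0.13, with an interval wide enough to hold changes either way (95% interval -0.77 to 0.51, limma-trend adjusted p = 0.731).

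Spry2 (ENSMUSG00000022114, chromosome 14) was the more abundant Sprouty gene throughout. It stood at 28.7 and 28.2 FPKM in WT, 32.7 and 35.1 FPKM in E1-KO, 37.1 and 27.2 FPKM in E2-KO and 28.4 and 22.9 FPKM in E3-KO. E1-KO lay above WT, and E2-KO had 1 library above and 1 below. The differences were 0.24 (95% interval -0.10 to 0.59), 0.16 (-0.19 to 0.50) and -0.15 (-0.50 to 0.20), for which limma-trend gave an adjusted p of 0.237, 0.454 and 0.458. Fitting E1-KO and WT alone made the first pass (limma-trend adjusted p = 0.0329).

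Spred1 (ENSMUSG00000027351, chromosome 2), which holds back RAS with the help of neurofibromin, went down in all lines. It had 7.41 and 8.20 FPKM in WT, 5.68 and 5.81 FPKM in E1-KO, 6.11 and 5.12 FPKM in E2-KO and 3.21 and 3.35 FPKM in E3-KO. The 4 libraries of E1-KO and E2-KO lay between those of WT and E3-KO without overlap. It fell by 1.04 in E3-KO (standard error 0.131, limma-trend adjusted p = 0.000461), to 0.421 of the WT mean, and this held under each alternative tried. The falls of 0.38 in E1-KO and 0.41 in E2-KO were close to the threshold (limma-trend adjusted p = 0.0458 and 0.0354). Neither passed with median-ratio scaling (0.0681 and 0.0574) or quantile normalization (0.181 and 0.133). The call in E1-KO was lost without any 1 library of E1-KO or WT (limma-trend adjusted p = 0.101 to 0.233), and that in E2-KO without any 1 of E1-KO or WT or without E2-KO replicate 2 (0.0586 to 0.199).

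Dusp6 (ENSMUSG00000019960, chromosome 10) encodes a cytoplasmic phosphatase with a preference for ERK. Its level was 3.85 and 4.35 FPKM in WT, 7.11 and 7.02 FPKM in E1-KO, 8.39 and 4.57 FPKM in E2-KO and 2.42 and 2.13 FPKM in E3-KO. WT lay between E3-KO below and the other lines above, with no overlap. The rise in E1-KO was 0.66 (standard error 0.218, limma-trend adjusted p = 0.0403) and the fall in E3-KO was -0.64 (limma-trend adjusted p = 0.0399). Both were close to the threshold. Leaving out any 1 library of WT, E1-KO or E3-KO ended either call (limma-trend adjusted p = 0.050 to 0.168 in E1-KO and 0.0593 to 0.174 in E3-KO). Median-ratio scaling took the fall in E3-KO to -0.52 (limma-trend adjusted p = 0.076), quantile normalization to -0.48 (0.109), and with all genes above 0 tested the adjusted p-values were 0.0968 in E1-KO and 0.0928 in E3-KO. In E2-KO the difference of 0.51 (95% interval 0.01 to 1.00) did not pass (limma-trend adjusted p = 0.100), and its size depended on the library kept: it was 0.88 without E2-KO replicate 2 (limma-trend adjusted p = 0.00584) and 0.13 without E2-KO replicate 1 (limma-trend adjusted p = 0.587).

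Dusp4 (ENSMUSG00000031530, chromosome 8), a nuclear phosphatase of ERK and other MAP kinases, was low. It had 0.766 and 0.609 FPKM in WT against 0.203 and 0.443 in E1-KO, then 0.642 and 0.619 in E2-KO and lastly 0.391 and 0.228 in E3-KO. E1-KO and E3-KO lay below both WT libraries and E2-KO lay between them. In a fit on all genes above 0 the differences were -0.36 in E1-KO (limma-trend adjusted p = 0.0643), -0.05 in E2-KO (0.823) and -0.37 in E3-KO (0.0496). Dusp4 thus did not rise where Dusp6 and Spry4 did.

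The sequence upstream of 2 brakes that were lower in E3-KO than in the other lines, Dusp6 and Spred1, is shown because ETS factors such as Etv4 bind a GGAA core. RefSeq promoters (build GRCm38.p6, 250 bases before to 50 after a start site) were matched by symbol and used for 5 of the 10 genes. No promoter of Etv4, Fgfr1, Spry4, Dusp4 or Egr1 was searched. The 250 bases before the start are given 5′ to 3′ on the plus strand, with GGAA, or TTCC for the other strand, in capitals. The interval of Dusp6 is chr10:99262981-99263230 and that of Spred1 is chr2:117120821-117121070.
Dusp6: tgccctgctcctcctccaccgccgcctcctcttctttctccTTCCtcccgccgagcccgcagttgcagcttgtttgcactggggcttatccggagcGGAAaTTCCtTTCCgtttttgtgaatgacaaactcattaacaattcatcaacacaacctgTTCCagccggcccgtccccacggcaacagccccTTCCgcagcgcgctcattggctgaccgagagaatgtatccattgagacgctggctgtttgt
Spred1: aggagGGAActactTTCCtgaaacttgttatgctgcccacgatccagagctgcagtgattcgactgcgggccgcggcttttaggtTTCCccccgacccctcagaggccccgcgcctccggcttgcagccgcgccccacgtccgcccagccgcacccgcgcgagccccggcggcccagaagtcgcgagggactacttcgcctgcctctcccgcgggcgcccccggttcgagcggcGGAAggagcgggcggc

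In these 250 bases the core occurred 6 times in Dusp6 and 4 times in Spred1, and also 4 and 0 times in the 2 promoters of Etv5, 3 times in Spry2 and 0 times in Fgf4. The median over 32851 promoters was 3 (quartiles 2 and 4), and 93.4% held at least 1. Etv5 did not pass in any line and matched Spred1 in 1 promoter, so the counts do not set apart the genes that were lower in E3-KO. This core was chosen after the longer motifs had given no match. The longer motifs, searched on both strands of the 300 bases, were the ETS site CCGGAAGT (in 3.89% of all promoters), the AP-1 site TGANTCA (7.81%), the cAMP response element TGACGTCA (1.79%) and a consensus serum response element (0.0639%). These letters were not in the 6 promoters searched, of Etv5 (2 promoters), Spry2, Dusp6, Fgf4 and Spred1. Whether they occur in the promoters of Egr1 and the other genes left out was not tested.

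Compared with each other, the lines fell into E1-KO and E2-KO on the one side and E3-KO on the other. Etv4, Spry4, Dusp6 and Spred1 were lower in E3-KO than in E1-KO and also lower than in E2-KO. Against E1-KO, 4 of the 8 genes were lower, where 16.4% of all tested genes were lower, and 0 were higher, where 9.41% of all were (limma-trend, 1 higher at an unadjusted p under 0.05). Against E2-KO, 4 were lower (10.1% of all genes) and 0 higher (5.48% of all genes; limma-trend, 1 higher at an unadjusted p under 0.05). Between E2-KO and E1-KO 0 of the 8 were higher (0.488% of all) and 0 lower (0.346% of all) by limma-trend, with 0 and 1 at an unadjusted p under 0.05.

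Etv4 was lower in E3-KO by -1.83 against E1-KO (95% interval -2.04 to -1.62, limma-trend adjusted p = 5.01e-05) and by -1.46 against E2-KO (limma-trend adjusted p = 0.00048). For Spry4 the differences were -1.42 against E1-KO (limma-trend adjusted p = 0.00689) and -1.23 against E2-KO (limma-trend adjusted p = 0.0206). The latter was lost without E2-KO replicate 1 (-0.72, limma-trend adjusted p = 0.0562) and without E3-KO replicate 1 or 2 (0.0839 and 0.0535). Dusp6 differed by -1.30 (limma-trend adjusted p = 0.00319) and -1.15 (limma-trend adjusted p = 0.0101), the latter not passing without E3-KO replicate 2 (limma-trend adjusted p = 0.0528). Spred1 differed by -0.66 (limma-trend adjusted p = 0.00696) and -0.62 (limma-trend adjusted p = 0.0149), the latter not passing without E2-KO replicate 1 (limma-trend adjusted p = 0.0737). Fitting E3-KO and E2-KO alone took Spry4 to 0.0623 and Spred1 to 0.0736. The 4 differences against E1-KO passed in every alternative that tested them.

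Between E2-KO and E1-KO, Etv4 had the only difference with an interval that left out 0 (-0.37, 95% interval -0.58 to -0.16), and its limma-trend adjusted p was 0.0967. For Fgfr1 the intervals of E3-KO against E1-KO (0.29, 0.02 to 0.56) and against E2-KO (0.29, 0.02 to 0.56) lay above 0 without passing (limma-trend adjusted p = 0.102 and 0.136). Median-ratio scaling made the former pass (0.40, limma-trend adjusted p = 0.043). For Spry2 the difference of E3-KO from E1-KO was -0.39 (limma-trend adjusted p = 0.0914), and it passed without either E2-KO library (0.0373 and 0.0376) but not without any other library (0.0655 to 0.335). Fgf4 and Etv5 did not pass between any lines, and their differences lay between -0.02 and 0.25.

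**Figure D2:**
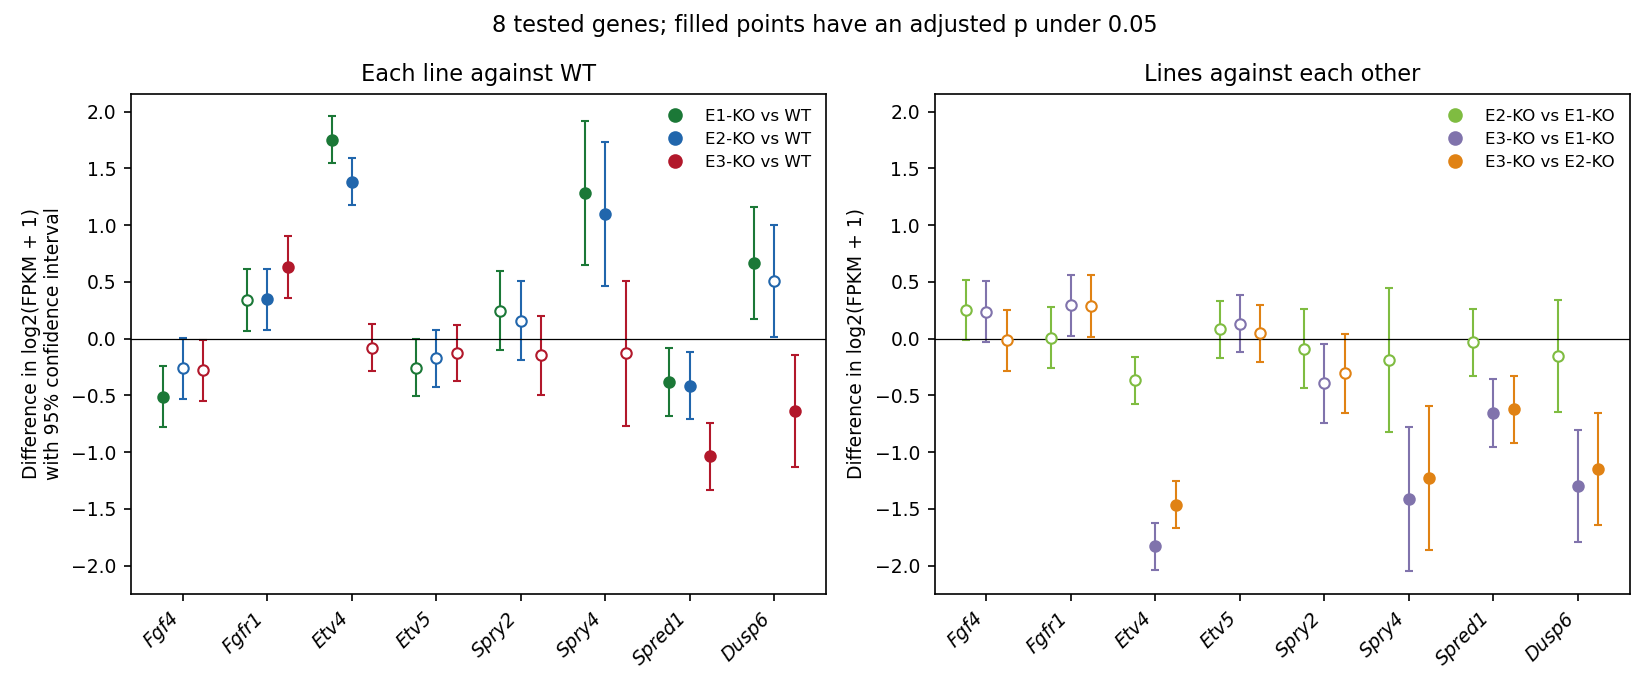
Differences in log2(FPKM + 1) (vertical axis) of the 8 tested genes, each line against WT on the left and lines against each other on the right; points are limma-trend estimates, bars are 95% confidence intervals, and filled points have an adjusted p under 0.05. Etv4 and Spry4 lie above 0 in E1-KO and E2-KO against WT, and Etv4, Spry4, Dusp6 and Spred1 lie below 0 in E3-KO against both other lines.

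Ratios of a pair of genes within a library do not depend on how libraries are scaled to each other. They were chosen after the levels had been seen and are given as a description. The ratio of Etv4 to Etv5 was 0.373 and 0.329 in WT against 1.48 and 1.39 in E1-KO, then 0.956 and 1.15 in E2-KO and lastly 0.353 and 0.371 in E3-KO. E1-KO was highest, E2-KO next, and E3-KO overlapped WT. For Spry4 to Spry2 the ratio was 0.0585 and 0.0699 in WT against 0.179 and 0.168 in E1-KO, then 0.204 and 0.119 in E2-KO and lastly 0.0465 and 0.081 in E3-KO, so the libraries of E2-KO stood apart less than in the level of Spry4 alone. Dusp6 to Spry2 gave 0.134 and 0.154 in WT against 0.218 and 0.200 in E1-KO, then 0.226 and 0.168 in E2-KO and lastly 0.0851 and 0.0927 in E3-KO. Receptor to ligand, Fgfr1 to Fgf4, was 0.513 and 0.528 in WT and 0.792 to 1.15 in the 6 knockout libraries.

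**Figure D3:**
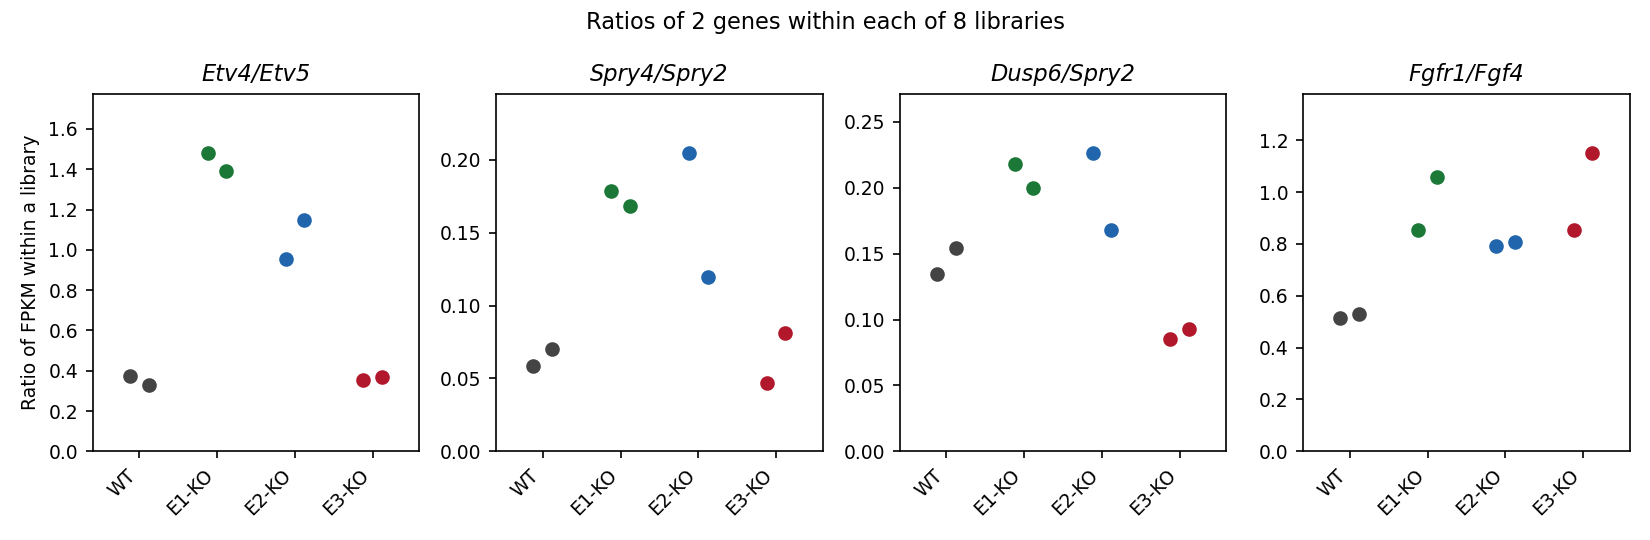
Ratio of the FPKM of 2 genes within a library (vertical axis, from 0) for Etv4 to Etv5, Spry4 to Spry2, Dusp6 to Spry2 and Fgfr1 to Fgf4; each point is a library, with 2 per group. The first 3 ratios are highest in E1-KO and E2-KO, and the ratio of Fgfr1 to Fgf4 is above WT in all 6 knockout libraries.

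The other genes of the pathway were described from 4 lists of 64 genes in all, of which 47 were tested. In E1-KO 9 of the 47 rose and 12 fell, in E2-KO 9 rose and 11 fell, and in E3-KO 9 rose and 16 fell. Of all tested genes 15.0% rose and 23.0% fell in E1-KO, 14.2% and 21.9% did so in E2-KO, and the shares in E3-KO were 13.9% and 30.8%, so the share of pathway genes called was not far from the background. Counts in single lists are to be read against the same shares. Without WT replicate 1 or 2 the genes called numbered 11 and 13 in E1-KO, then 10 and 7 in E2-KO and lastly 16 and 15 in E3-KO. Without E1-KO replicate 1 or 2 they numbered 11 and 13 in that line. The share of all tested genes called dropped in the same way, from 38.0% to 21.4% and 18.1% in E1-KO, from 36.1% to 19.4% and 16.6% in E2-KO and from 44.7% to 29.0% and 25.1% in E3-KO without WT replicate 1 or 2, and to 18.9% and 22.8% in E1-KO without its own replicate 1 or 2. The medians of the 47 genes were 0.03, -0.13 and -0.11, beside -0.06, -0.08 and -0.15 over all tested genes.

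Of 11 further ligands and receptors, 4 were tested (Fgf3, Fgf10, Fgf17 and the decoy receptor gene Fgfrl1), and 1 rose and 3 fell in E1-KO, 1 rose and 2 fell in E2-KO and 3 fell in E3-KO. Fgf10 fell from 6.41 and 6.43 FPKM in WT to 3.02 and 3.00 FPKM in E1-KO, 1.74 and 2.00 FPKM in E2-KO and 1.29 and 1.63 FPKM in E3-KO, with differences of -0.89, -1.37 and -1.60 (limma-trend adjusted p = 0.00174, 0.000319 and 9.4e-05). Fgfrl1 fell in all lines as well (-1.01, -0.72 and -1.21). Fgf17 rose in E1-KO (0.81) and E2-KO (0.54), as Etv4 did, and fell in E3-KO (-1.05). The identifier of Fgf17 had 2 rows, and with the rows summed the differences were 0.64, 0.45 and -1.17, of which that in E2-KO did not pass (limma-trend adjusted p = 0.0591). Fgf3 fell in E1-KO (-0.89), to 0.632 and 0.714 FPKM from WT libraries that lay far apart (1.51 and 2.80 FPKM).

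The relay from adaptors to ERK held 18 tested genes, of which 2 rose and 3 fell in E1-KO, 2 rose and 4 fell in E2-KO and 1 rose and 8 fell in E3-KO. The genes for the kinases MEK1 (Map2k1) and ERK1 (Mapk3) are examples. Map2k1 fell in all 3 (-0.67, -0.50 and -0.55), and Mapk3 fell in E3-KO, from 39.2 and 40.1 FPKM in WT to 20.1 and 19.3 FPKM (-0.97, limma-trend adjusted p = 0.000193). The adaptor gene Gab1 rose in the 3 lines (0.44, 0.29 and 0.28). Grb2 fell in E1-KO (-0.49), Frs2 in E2-KO (-0.54) and Araf in both E2-KO (-0.55) and E3-KO (-0.45). The WT libraries of Araf lay far apart (31.92 and 44.55 FPKM), against 24.36 and 26.54 FPKM in E2-KO and 30.17 and 24.92 FPKM in E3-KO.

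Among the other feedback inhibitors 11 genes were tested, of which 2 rose and 3 fell in E1-KO, 3 rose and 4 fell in E2-KO and 2 rose and 4 fell in E3-KO. Dusp9, an X-linked phosphatase of ERK, rose in all lines, from 15.7 and 14.5 FPKM in WT to 45.7 and 37.3 FPKM in E1-KO, 38.6 and 47.6 FPKM in E2-KO and 38.8 and 35.7 FPKM in E3-KO (1.39, 1.45 and 1.25; limma-trend adjusted p = 0.000222, 0.000226 and 0.000224). It thus did not separate E3-KO from the other lines as Dusp6 did. Some further inhibitors fell in all lines. Dusp1 differed by -0.71, -0.97 and -0.35 (in the order E1-KO, E2-KO, E3-KO), Rasa1, the gene of a RAS GTPase activator, by -0.70, -0.75 and -0.69, and Il17rd, which encodes a membrane antagonist of FGF signals, by -0.40, -0.53 and -0.75. Spred3 rose in all lines (0.74, 0.60 and 0.50).

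The list of other immediate early and ERK output genes had 14 tested members, of which 4 rose and 3 fell in E1-KO, 3 rose and 1 fell in E2-KO and 6 rose and 1 fell in E3-KO. Etv1, the third member of the Etv4 and Etv5 subfamily, rose in every line, from 2.21 and 2.34 FPKM in WT to 14.4 and 13.6 FPKM in E1-KO, 15.2 and 12.5 FPKM in E2-KO and 14.65 and 16.3 FPKM in E3-KO. Its differences were 2.195, 2.18 and 2.33 (limma-trend adjusted p = 2.96e-05, 4.36e-05 and 3.17e-05). The subfamily thus showed 3 patterns in these lines: Etv1 rose in all, Etv4 in E1-KO and E2-KO, and Etv5 passed the test in none. Myc rose in all lines as well (1.77, 1.75 and 0.94). Srf, the gene of serum response factor, rose by 0.66, 0.60 and 0.43. Ccnd1, the gene of cyclin D1, fell in E1-KO (-0.43) and E3-KO (-0.92).

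**Figure D4:**
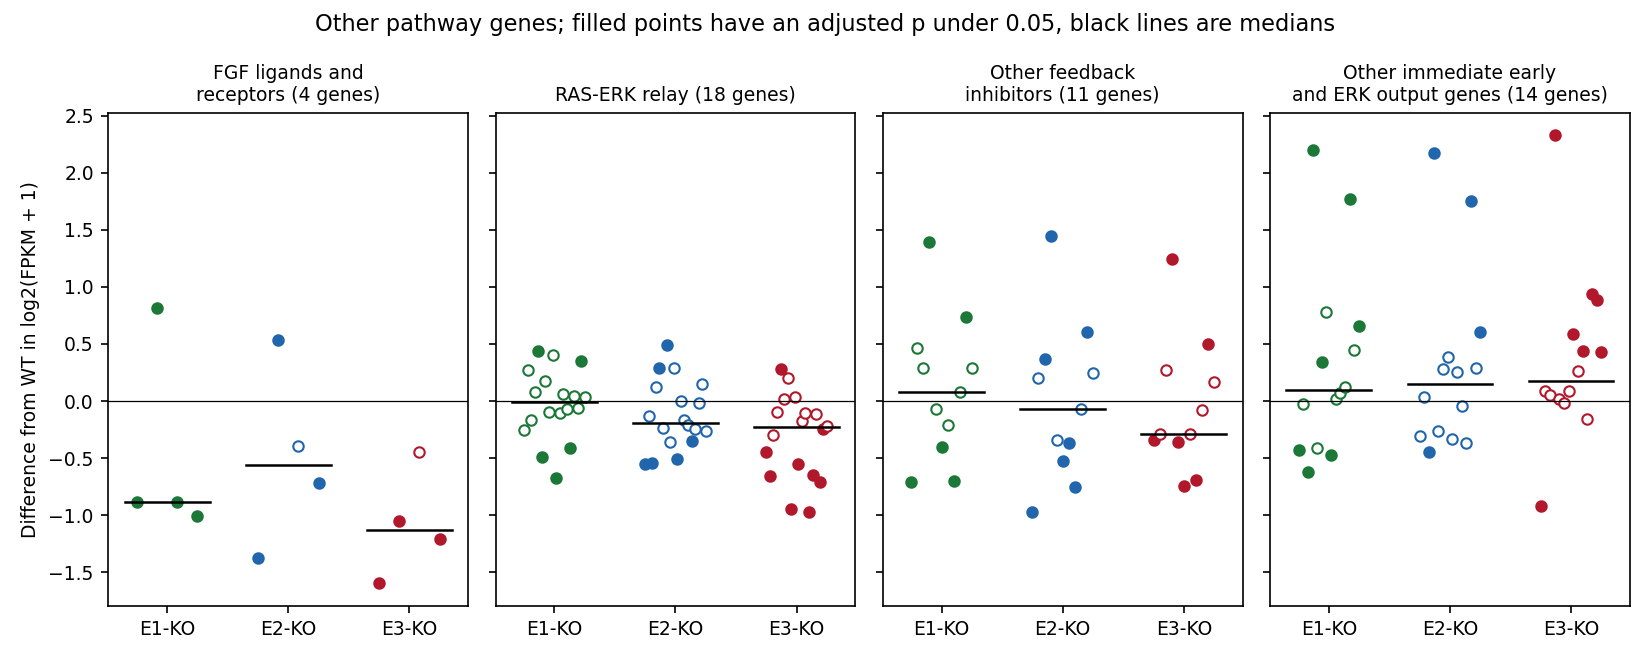
Difference from WT in log2(FPKM + 1) (vertical axis) of the 47 tested genes of the 4 other pathway lists, by line (E1-KO, E2-KO, E3-KO). Each point is a gene, filled where its limma-trend adjusted p is under 0.05, and black lines are medians of a list. The highest point in all 3 lines is Etv1 in the list of output genes (2.18 to 2.33). Myc of the same list comes next in E1-KO (1.77) and E2-KO (1.75). Dusp9 is the highest among the inhibitors in all 3 lines (1.25 to 1.45).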

How the data were processed

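Total RNA libraries of the 8 samples were, per the labels' protocols, sequenced from paired ends by Illumina. The submitters' processing notes name Trimmomatic 0.36, TopHat2 2.0.12, Cufflinks 2.2.1 and the build mm9; the annotation and any normalization between samples are not given in the sources used here. The deposited values carry no unit and were taken as FPKM, since the notes name Cufflinks and the values are not whole and differ in sum. They give no counts, so no counting interval was possible. Gene positions and chromosomes refer to GRCm38 (GENCODE M21), not to the authors' build.

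Each sample listed 18774 rows with 17812 identifiers (17262 with a symbol). Of 660 identifiers with several rows, 575 kept the row at the gene's place in the file order and 85 were left out, among them Fgfr2. No gene of the set had a repeated identifier. Genes whose mean reached 1 FPKM were fitted as log2(FPKM + 1) in limma 3.58.1 (R 4.3.3) by limma-trend, with all 8 samples and the group as the only term (4 residual degrees of freedom), with calls at an adjusted p under 0.05 (Benjamini-Hochberg over all tested genes, two-sided). The script was tested on simulated data. Labels call the replicates biological without naming separate cultures, so p-values measure the spread between these samples.

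Genes named from the other lists were the up to 3 per list and line with the largest change among those called. Some genes that this rule picks are not reported here. The members, lists, tests and alternatives were chosen with earlier results of these data known, so they are no independent support. Alternatives were the replicate block, the 2 groups alone, quantile and median-ratio scaling, a test of all genes above 0, a minimum mean of 5 FPKM, a pseudocount of 0.1, no trend, summed rows and leaving out each library. Figures were drawn with matplotlib 3.10.9.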

Additional observations from a re-analysis of the deposited data

Results flagged for a closer look

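The change against WT differed between lines, by a direct test of the lines in limma-trend, for 4 of the 8 tested genes. Many genes outside the set also separated E3-KO from the other lines. By the same test, E3-KO differed from E1-KO in 25.8% of all tested genes and from E2-KO in 15.55%. For Etv4 the change in E3-KO was below that in E1-KO by -1.83 and below that in E2-KO by -1.46 on the log2 scale. For Spry4 these differences were -1.42 and -1.23. Dusp6 gave -1.30 and -1.15, and Spred1 gave -0.66 and -0.62. In each case both E3-KO libraries lay below the 4 libraries of E1-KO and E2-KO. Each line is a group of its own, so the enhancer, the clone and the culture cannot be told apart.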

How the results depend on the processing

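The rises of Etv4 and Spry4 in E1-KO, of Etv4 in E2-KO and of Fgfr1 in E3-KO, the fall of Spred1 in E3-KO and the 4 differences between E3-KO and E1-KO kept their direction and passed under every alternative that tested them. Spry4 and Dusp6 were not tested with a mean of at least 5 FPKM.

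Counts of called genes of the set moved as follows. Against 5 in E1-KO there were 3 with all genes above 0 and 8 with the 2 groups alone, and 2 to 6 when a library was left out. Against 4 in E2-KO there was 1 with all genes above 0, 2 with the 2 groups alone, and 1 to 4 when a library was left out. Between E3-KO and E1-KO the 4 became 2 with a mean of at least 5 FPKM. Between E3-KO and E2-KO the 4 became 2 with a mean of at least 5 FPKM or with the 2 groups alone, and 2 to 5 when a library was left out. With at least 5 FPKM fewer genes were tested; for the others the cause was not tested.

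Of the other pathway genes, leaving out a library gave 11 to 23 called in E1-KO, 7 to 21 in E2-KO and 15 to 24 in E3-KO. Between E3-KO and E1-KO it gave 9 to 16, with 9 at a mean of at least 5 FPKM, and between E3-KO and E2-KO 6 to 13, with 4 in the 2 groups alone.

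Signs turned only for differences that had not passed. In E3-KO against WT these were Etv4 (0.083 with median-ratio scaling, 0.0051 with quantile normalization), Etv5 (0.039 with median-ratio scaling) and Spry2 (0.013 with median-ratio scaling, 0.00086 with quantile normalization). Between E3-KO and E2-KO Fgf4 gave 0.078 with median-ratio scaling and 0.072 with quantile normalization. When a library was left out, E3-KO against WT ranged from -0.30 to 1.1e-05 for Spry2 and from -0.28 to 0.019 for Spry4, and E2-KO against WT from -0.061 to 0.37 for Spry2. E3-KO against E2-KO ranged from -0.055 to 0.15 for Etv5 and from -0.16 to 0.12 for Fgf4. E2-KO against E1-KO ranged from -0.53 to 0.22 for Dusp6, from -0.020 to 0.18 for Etv5, from -0.10 to 0.11 for Fgfr1, from -0.14 to 0.076 for Spred1, from -0.31 to 0.13 for Spry2 and from -0.69 to 0.32 for Spry4.

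The share of all tested genes called moved with these counts. Against WT it was 38.0%, 36.1% and 44.7% (E1-KO, E2-KO, E3-KO), and in that order 22.7%, 21.1% and 29.1% with all genes above 0, 49.3%, 34.5% and 42.6% with the 2 groups alone, and 18.1% to 41.5%, 16.6% to 39.5% and 25.1% to 47.4% when a library was left out. Between E3-KO and E1-KO it was 25.8% (11.6% to 29.05% when a library was left out, 25.4% at 5 FPKM), and between E3-KO and E2-KO 15.55% (8.64% to 13.7%, 16.2% at 5 FPKM, 5.95% in the 2 groups alone). Between E2-KO and E1-KO it was 0.834%, with 0.275% with the replicate block, 0.00887% with the 2 groups alone, 0.00564% with all genes above 0 and 0.0177% to 2.32% when a library was left out, the highest values being those without E3-KO replicate 1 (2.32%) or 2 (2.23%).

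Samples with the same replicate number did not deviate together (correlations of -0.0423 to 0.0896 between groups), so the block has no basis in the data. With the replicate block 5, 3 and 3 genes of the set were called in E1-KO, E2-KO and E3-KO and 21, 17 and 19 of the other pathway genes. Between lines the replicate block gave 0, 4 and 4 of the set and 0, 13 and 11 of the others for E2-KO against E1-KO, E3-KO against E1-KO and E3-KO against E2-KO. Of all tested genes the block called 36%, 34.2% and 42.7% in E1-KO, E2-KO and E3-KO against WT. For the lines against each other, in the order just given, the block called 0.275%, 23.8% and 13.5% of all tested genes. It changed 3 of 48 single calls, those of Spred1 in E1-KO and E2-KO, which did not pass (limma-trend adjusted p = 0.0626 and 0.0506), and that of Fgfr1 in E1-KO, which passed (limma-trend adjusted p = 0.0246). Leaving out a library leaves 1 sample in its group, which is then assumed to vary like the others. Absolute depth is unknown, so for Egr1 and Dusp4 no counting limit can be given.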

Other observations

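Genes with the level pattern most like that of Etv4 were sought by Pearson's r of log2(FPKM + 1) over the 8 libraries, among 1200 tested genes with a standard deviation of at least 0.5. The libraries fall into 4 groups, so r is a description of likeness with no test. The nearest were Idi1 (r = 0.996), an enzyme gene of isoprenoid synthesis, Pcbp4 (0.994), an RNA-binding protein gene, and Cacng7 (0.989), a calcium channel subunit gene. Idi1 had 5.19 and 5.60 FPKM in WT, 12.4 FPKM in both libraries of E1-KO, 10.7 and 10.6 FPKM in E2-KO and 5.08 and 5.25 FPKM in E3-KO. Pcbp4 had 19.1 and 18.9 FPKM in WT, 41.1 and 40.9 FPKM in E1-KO, 33.9 and 37.0 FPKM in E2-KO and 19.1 and 20.1 FPKM in E3-KO. In both, as for Etv4, E1-KO was highest and E2-KO next, with E3-KO near WT. For Dusp6 the nearest were Rhox6 (0.959), Manba (0.946) and Rtl1 (0.940), of which Manba shared the gap between the E2-KO libraries (58.1 and 30.9 FPKM).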
